A study of Mus musculus with 6 samples.

Results

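The genes described here encode the receptors of the common gamma chain cytokine family: Il2ra, Il2rb, Il2rg, Il4ra, Il7r, Il9r, Il15ra and Il21r, 8 genes chosen by symbol. Of these, 7 were measured among 19937 genes, each through its single probe set that carries 1 gene symbol. Il2rg, the gene of the common gamma chain itself, has no such probe set in the annotation used here and was not analysed here. The probe sets are 10469278 for Il2ra, 10430344 for Il2rb, 10557326 for Il4ra, 10427628 for Il7r, 10384974 for Il9r, 10469289 for Il15ra and 10557342 for Il21r.

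Every array was hybridised with RNA from Thy1.2+ cells that were magnetically purified from thymi of Rag1-/- mouse embryos at E17.5 (days of gestation). In 1 group anti-CD3 was given for 40 h together with 50 µM of 79-6, a small molecule made to block the BTB domain of the repressor Bcl6 (79-6-40h, called 79-6 here). Another had anti-CD3 and the vehicle DMSO for the same 40 h (Control-DMSO-40h, called DMSO here). The last came from fresh thymi at 0 h, with neither anti-CD3 nor vehicle (Control-0h, called fresh here). DMSO thus differs from fresh cells in anti-CD3, vehicle and 40 h of culture together, and these cannot be told apart. In 79-6 against fresh cells the compound, anti-CD3 and culture likewise cannot be told apart. There were 2 arrays in each of the 3 groups, and the design text of the series names fetal thymic organ culture as the stimulated material. All groups lack Rag1, so antigen receptor genes stay unrearranged, T cell development is held at the third double-negative stage (DN3), and anti-CD3 takes the place of a pre-T cell receptor signal. Such a thymus still holds natural killer (NK), innate lymphoid, myeloid and stromal cells. Neither pooling of embryos nor separate cultures are stated for the replicates, so the p-values cover the spread of these arrays alone, which may be technical.

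Common gamma chain receptors are built from shared parts. The chains Il4ra, Il7r, Il9r and Il21r each bind the interleukin of their name together with the common chain. The receptors for IL-2 and IL-15 share Il2rb beside the common chain and differ in their private alpha chains, Il2ra (CD25) and Il15ra. Binding activates the kinases Jak1 and Jak3 and then Stat proteins, mainly Stat5, with Stat6 serving Il4ra and Stat3 serving Il21r. In the thymus Il7r sustains early thymocytes, and Il2ra marks the middle double-negative stages and is lost as cells pass beta-selection.

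Of the members, 4 lie in adjacent pairs in the genome. Il2ra and Il15ra are neighbours on chromosome 2 with 0 annotated protein-coding genes between them, and Il4ra and Il21r are neighbours on chromosome 7, also with 0 between them (RefSeq, GRCm38.p6). The start regions of Il2ra and Il7r, which were lower in DMSO than in fresh cells, and of Il4ra and Il21r, which were higher, are printed because these 4 members differed most in that comparison. Each runs from 250 bases before to 50 after the annotated start (RefSeq, GRCm38.p6). Capitals mark TTCNNNGAA, the core of a Stat binding motif, searched with TGGGAA and its reverse complement TTCCCA, the core of the motif read by the Notch effector Rbpj, on both strands.
Il2ra, chr2:11642542-11642841, plus strand: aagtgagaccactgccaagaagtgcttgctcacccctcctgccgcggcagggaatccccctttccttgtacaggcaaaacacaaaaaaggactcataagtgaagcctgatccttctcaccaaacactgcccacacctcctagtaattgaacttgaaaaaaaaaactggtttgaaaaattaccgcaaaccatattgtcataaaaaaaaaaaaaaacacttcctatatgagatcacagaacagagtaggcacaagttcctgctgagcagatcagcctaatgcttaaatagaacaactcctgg
Il7r, chr15:9529827-9530126, minus strand: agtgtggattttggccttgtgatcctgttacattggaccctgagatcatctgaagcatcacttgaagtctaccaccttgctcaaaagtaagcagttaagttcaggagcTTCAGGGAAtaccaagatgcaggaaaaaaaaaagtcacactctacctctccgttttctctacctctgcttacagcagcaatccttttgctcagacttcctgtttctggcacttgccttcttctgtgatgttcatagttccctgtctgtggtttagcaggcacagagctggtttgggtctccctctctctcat
Il4ra, chr7:125552021-125552320, plus strand: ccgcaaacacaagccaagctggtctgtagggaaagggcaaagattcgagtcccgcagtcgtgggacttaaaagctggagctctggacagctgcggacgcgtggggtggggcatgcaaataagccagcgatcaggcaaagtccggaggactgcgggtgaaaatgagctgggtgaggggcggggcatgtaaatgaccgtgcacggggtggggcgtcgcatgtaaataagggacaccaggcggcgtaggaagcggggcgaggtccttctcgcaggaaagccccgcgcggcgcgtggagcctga
Il21r, chr7:125603179-125603478, plus strand: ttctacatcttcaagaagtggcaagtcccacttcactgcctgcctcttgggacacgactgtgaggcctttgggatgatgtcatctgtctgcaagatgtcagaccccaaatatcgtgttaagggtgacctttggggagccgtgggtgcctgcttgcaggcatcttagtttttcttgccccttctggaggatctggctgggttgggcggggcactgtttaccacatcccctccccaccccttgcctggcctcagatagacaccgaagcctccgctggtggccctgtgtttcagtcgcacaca
Only Il7r among these 4 windows held a match, 1 TTCNNNGAA at position -142 from the annotated start. Of 32851 promoter windows of 300 bases, 8.3% held TTCNNNGAA and 25.6% held TGGGAA or its reverse complement. A match is a run of letters and was not set against binding data.

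Levels are given as log2 of the deposited intensity, and a difference is between group means on that scale, with the standard error (SE) and 95% interval of limma's moderated test. A gene was called when its adjusted p (Benjamini-Hochberg over 19937 genes) was under 0.05. All 7 members were brighter in each group than at least 99.6% of 1035 olfactory receptor probe sets, genes that thymocytes are not known to use. Median intensities ran from 99.3 to 103.6 over the arrays, whose number limits the precision. In bulk samples fewer cells of a type and less RNA per cell cannot be told apart.

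**Figure D1:**
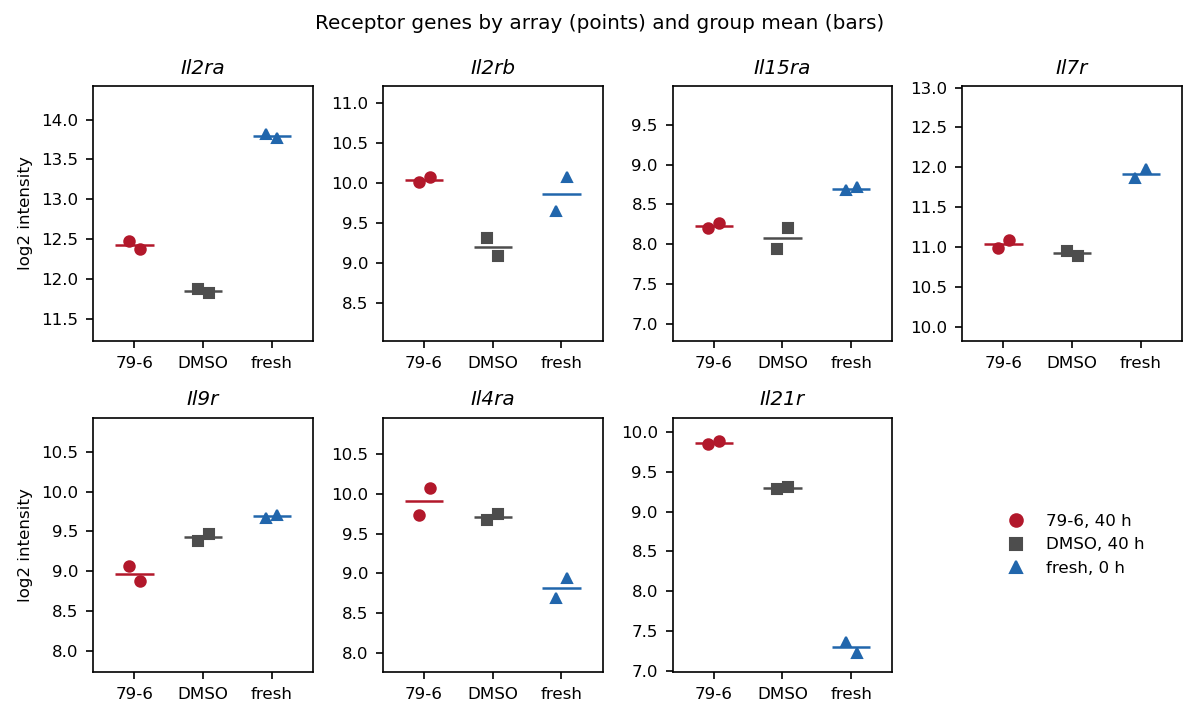
Log2 intensity of the 7 measured receptor genes (vertical axis, 3.2 log2 units in every panel) in 2 arrays each of 79-6, DMSO and fresh cells; points are arrays and horizontal lines group means. Il2ra and Il7r sit highest in fresh cells, Il21r and Il4ra lowest there, and Il2rb is lowest in DMSO.

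Counted over the family, 3 of 7 members were higher and 1 lower in 79-6 than in DMSO, where 4.36% of all genes were called (2.38% higher and 1.98% lower). The higher ones were Il2ra, Il2rb and Il21r, and the lower one Il9r. The count of 4 went to 0 without either DMSO array, 1 without 79-6 replicate 2 and 3 without any other array. DMSO against fresh cells had 2 members higher (Il4ra and Il21r) and 4 lower (Il2ra, Il2rb, Il7r and Il15ra), where 19.6% of all genes were called (8.89% higher and 10.7% lower). 79-6 against fresh cells had 2 higher (Il4ra and Il21r) and 4 lower (Il2ra, Il7r, Il9r and Il15ra), where 26% were called (12% higher and 13.9% lower). The median member differed by 0.20, -0.62 and -0.46 in the order just given, against 0.02, 0.02 and 0.05 over all genes. Arrays of the 2 groups did not overlap for 5 members higher and 1 lower in 79-6 against DMSO (all genes 49%, with 26.8% higher and 22.2% lower). They did not overlap for 2 higher and 5 lower in DMSO against fresh (60%, with 31.9% and 28.1%), and for 2 higher and 4 lower in 79-6 against fresh (64.5%, with 36.8% and 27.7%). Each group enters 2 of the 3 comparisons, so a high or low array moves both.

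**Figure D2:**
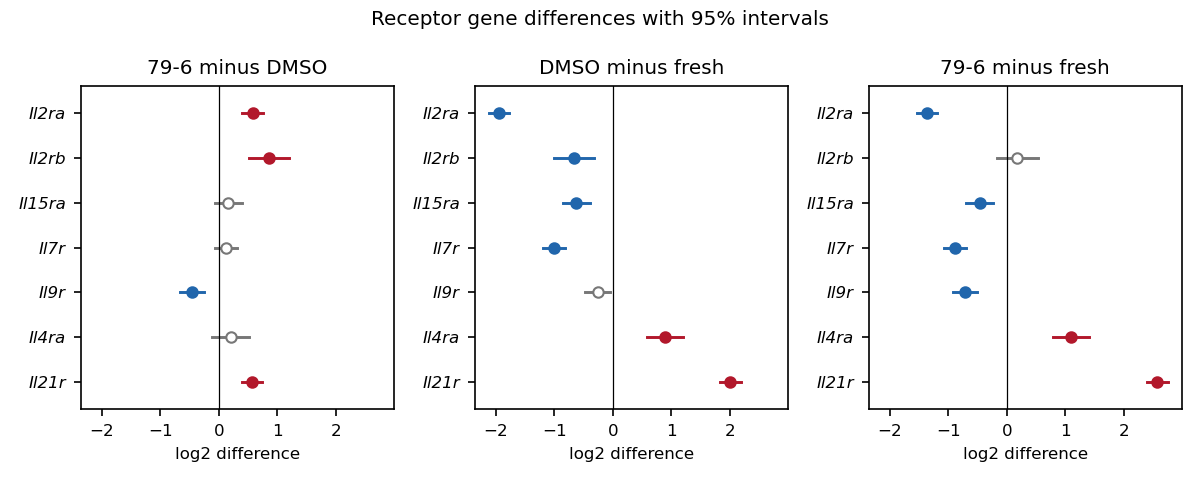
Log2 differences of the 7 receptor genes for 79-6 minus DMSO, DMSO minus fresh and 79-6 minus fresh (horizontal axis; bars are 95% intervals, red higher and blue lower at an adjusted p under 0.05, open grey not called). Il2ra and Il2rb lie right of 0 for 79-6 minus DMSO and left of 0 for DMSO minus fresh, and Il21r lies right of 0 in all 3 panels.

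Il2ra, which encodes the CD25 chain that gives the interleukin-2 receptor its high affinity, was 12.47 and 12.38 in 79-6, 11.88 and 11.82 in DMSO, and 13.82 and 13.76 in fresh cells on the log2 scale. The 3 groups did not overlap, with fresh cells highest and DMSO lowest. In DMSO Il2ra fell by 1.94 ± 0.07 (SE) on the log2 scale relative to fresh cells, a 3.84-fold lower level (adjusted p = 1.4e-05 by limma). With 79-6 it was 1.49-fold higher than with DMSO, a log2 difference of 0.58 ± 0.07 (interval 0.40 to 0.75, adjusted p = 0.0114 by limma). It was still 2.58-fold lower with 79-6 than in fresh cells (adjusted p = 3.8e-05 by limma). The call between 79-6 and DMSO was lost without DMSO replicate 1 (adjusted p = 0.0717) or DMSO replicate 2 (0.0931), each of which leaves 1 DMSO array. The intensities of the T-lineage list summed to 41333 and 43103 in 79-6, 42881 and 44549 in DMSO, and 51780 and 49863 in fresh cells. By limma 0 of 10 measured genes were called between 79-6 and DMSO. In DMSO against fresh cells 4 were higher and 4 lower, and in 79-6 against fresh cells 3 were higher and 5 lower. The count of 3 higher fell without any one array. The part of T-lineage cell content in the Il2ra result was not tested.

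Il2rb, the beta chain that signals for interleukin-2 and interleukin-15 and is known for its use by NK cells, was 10.01 and 10.07 in 79-6, 9.31 and 9.08 in DMSO, and 9.65 and 10.08 in fresh cells. The DMSO arrays lay below all 4 others, while 79-6 and fresh arrays overlapped. The gene was 1.80-fold higher with 79-6 than with DMSO (log2 difference 0.85 ± 0.15 SE, adjusted p = 0.0267 by limma), the largest difference of a member in that comparison. That call was lost without 79-6 replicate 1 (0.0652), 79-6 replicate 2 (0.143), DMSO replicate 1 (0.0905) or DMSO replicate 2 (0.163). DMSO was 1.59-fold lower than fresh (log2 difference -0.67 ± 0.15 SE, adjusted p = 0.0176 by limma), a call lost without DMSO replicate 2 (0.107) or fresh replicate 2 (0.0657). Between 79-6 and fresh cells the difference was 0.18 with an interval of -0.16 to 0.52 (adjusted p = 0.404 by limma).

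NK and innate lymphoid markers were read beside Il2rb. Of 16 measured genes of that list, which leaves Il2rb out, 6 were higher and 1 lower in 79-6 than in DMSO, and 3 were higher and 8 lower in DMSO than in fresh cells. The 6 higher numbered 4 without 79-6 replicate 1, 1 without 79-6 replicate 2 or DMSO replicate 2, 2 without DMSO replicate 1 and 8 without either fresh array; the 1 lower was lost without 79-6 replicate 2 or either DMSO array, and the 3 higher in DMSO than in fresh cells numbered 1 without either DMSO array. In 79-6 against fresh cells, where Il2rb was not called, 7 of the 16 were higher and 1 lower. Their intensities summed to 24319 and 25658 in 79-6, 19396 and 19590 in DMSO, and 17366 and 21499 in fresh cells. The DMSO sums lay between those of the fresh arrays, and a sum gives most weight to the brightest genes. Gene by gene, the list had median log2 differences of 0.49 between 79-6 and DMSO and -0.42 between DMSO and fresh cells. In 79-6 against fresh cells the median was 0.21. Fresh replicate 1 was the lower of the 2 fresh arrays for Il2rb and for the sum of every marker list but the T-lineage one. The cytotoxic granule gene Nkg7 had a log2 difference of 1.12 between 79-6 and DMSO and -1.28 between DMSO and fresh, and Gzmb (granzyme B) 1.12 and -2.28. Gzma (granzyme A) went the other way, being the 1 lower gene in 79-6 against DMSO (-0.51, adjusted p = 0.0129 by limma) and higher in DMSO than in fresh cells (1.004). The signalling adaptor genes Fcer1g (0.78) and Tyrobp (1.01), which myeloid cells also use, were the other genes higher in DMSO than in fresh cells. All 16 were above the level that 95% of olfactory receptor probe sets stay under in at least 1 group. The part of these cells in the Il2rb result was not tested.

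Il15ra, the private chain that binds interleukin-15 and presents it to neighbouring cells, was 8.21 and 8.26 in 79-6, 7.94 and 8.20 in DMSO, and 8.68 and 8.71 in fresh cells. Fresh arrays lay above all cultured ones, and the cultured groups nearly touched. Its level in DMSO was 1.54-fold lower than in fresh cells (log2 difference -0.62 ± 0.10 SE, adjusted p = 0.00432 by limma). With 79-6 it was 1.38-fold lower than in fresh cells (adjusted p = 0.0120 by limma), a call lost without fresh replicate 1 (0.0541) or fresh replicate 2 (0.0637). The difference between 79-6 and DMSO was 0.16 with an interval of -0.07 to 0.39 (adjusted p = 0.409 by limma).

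Il7r, the interleukin-7 receptor alpha chain, was 10.99 and 11.09 in 79-6, 10.95 and 10.89 in DMSO, and 11.86 and 11.98 in fresh cells. Both cultured groups lay below the fresh arrays. The level in DMSO was 2.00-fold lower than in fresh cells (log2 difference -1.001 ± 0.08 SE, adjusted p = 2.3e-04 by limma). With 79-6 it was 1.84-fold lower than in fresh cells (-0.88 ± 0.08 SE, adjusted p = 3.1e-04 by limma). The difference between 79-6 and DMSO, 0.12, had an interval of -0.07 to 0.31 (adjusted p = 0.463 by limma), so a change of Il7r above 0.31 with the compound lies outside it. Crlf2, the chain that joins Il7r in the receptor for the cytokine Tslp, had log2 differences of 0.00 between 79-6 and DMSO and 0.19 between DMSO and fresh cells (adjusted p = 0.996 and 0.143 by limma).

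Il9r, the interleukin-9 receptor chain, was 9.07 and 8.87 in 79-6, 9.38 and 9.47 in DMSO, and 9.67 and 9.70 in fresh cells. It was the single member lowest in 79-6, and the 3 groups did not overlap. With 79-6 it was 1.37-fold lower than with DMSO (log2 difference -0.46 ± 0.09 SE, adjusted p = 0.0379 by limma). This call was lost with a replicate block (0.0527), with only these 2 groups fitted (0.0635), and without 79-6 replicate 2 (0.157), DMSO replicate 1 (0.129), DMSO replicate 2 (0.193) or either fresh array (0.0635 each). Relative to fresh cells 79-6 was 1.64-fold lower (-0.72 ± 0.09 SE, adjusted p = 0.00119 by limma). DMSO differed from fresh by -0.26 ± 0.09 (SE), which did not pass (adjusted p = 0.0848 by limma, and 0.0496 without either 79-6 array). Interleukin-9 is known to act on mast cells. The mast cell protease gene Cpa3 had log2 differences of -1.43 between 79-6 and DMSO and -1.61 between DMSO and fresh. Its list of granulocyte and mast cell genes had medians of -0.11 and 0.13 in these steps. Of the 17, 12 were above the olfactory receptor level in at least 1 group. In the list of 17 granulocyte and mast cell genes 0 were higher and 3 lower in 79-6 than in DMSO (1 lower without any one 79-6 or DMSO array, and 2 higher without 79-6 replicate 1). In DMSO against fresh cells 5 of the 17 were higher and Cpa3 was the 1 lower. The 5 were the neutrophil granule genes Mpo, Elane and Prtn3 and the calgranulin genes S100a8 and S100a9, with differences of 0.89 to 2.03. The sum of the list was 3357 and 4612 in 79-6, 4583 and 4229 in DMSO, and 4479 and 5134 in fresh cells. Fcer1a and Ms4a2, chains of the IgE receptor that defines mast cells, were within the range of the olfactory receptor probe sets in all groups, and the part of mast cells was not tested.

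Il21r, the interleukin-21 receptor, changed most of all members. It was 9.85 and 9.88 in 79-6, 9.29 and 9.31 in DMSO, and 7.36 and 7.23 in fresh cells. The groups were far apart relative to their arrays, in the order 79-6, DMSO, fresh. Its level in DMSO was 4.01-fold higher than in fresh cells (log2 difference 2.00 ± 0.08 SE, adjusted p = 1.4e-05 by limma). With 79-6 it was 5.94-fold higher than in fresh cells (2.57 ± 0.08 SE, adjusted p = 6.0e-06 by limma). The step between 79-6 and DMSO was 1.48-fold (0.57 ± 0.08 SE, interval 0.39 to 0.74, adjusted p = 0.0126 by limma). That call was lost without 79-6 replicate 2 (0.0784), DMSO replicate 1 (0.0888) or DMSO replicate 2 (0.0903).

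Il4ra, the interleukin-4 receptor alpha chain that also serves interleukin-13, was 9.73 and 10.07 in 79-6, 9.67 and 9.74 in DMSO, and 8.68 and 8.94 in fresh cells. Cultured arrays of both kinds overlapped and lay above the fresh ones. The level in DMSO was 1.86-fold higher than in fresh cells (log2 difference 0.89 ± 0.13 SE, adjusted p = 0.00329 by limma) and that in 79-6 2.13-fold higher (1.09 ± 0.13 SE, adjusted p = 0.00107 by limma). Between 79-6 and DMSO the difference of 0.20 had an interval of -0.11 to 0.51 (adjusted p = 0.447 by limma). Il13ra1, which pairs with Il4ra in the other form of the interleukin-4 receptor, was likewise higher in DMSO than in fresh cells (log2 difference 0.96, adjusted p = 0.00743 by limma, and 0.0542 without DMSO replicate 2).

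Macrophage and dendritic cell markers were also higher in cultured than in fresh cells. Of 18 measured genes 6 were higher and 0 lower in DMSO than in fresh cells by limma, and 15 higher and 0 lower in 79-6 than in fresh cells. Between 79-6 and DMSO 3 were higher and 0 lower, and the 3 numbered 1 without 79-6 replicate 1, 0 without 79-6 replicate 2 or DMSO replicate 1, 2 without DMSO replicate 2 and 7 without either fresh array. The count of 6 moved both up and down when 1 array was left out, and that of 15 fell without any one array. Their intensities summed to 30344 and 33746 in 79-6, 22898 and 25059 in DMSO, and 9488 and 13345 in fresh cells. Lyz2 (lysozyme) had a log2 difference of 3.88 between DMSO and fresh, and 18 of 18 genes were above the olfactory receptor level in at least 1 group. Between the fresh arrays Il4ra and the sum of every marker list but the T-lineage one were higher in replicate 2, and Il21r was lower there. In these cells, selected for Thy1.2, 14 of 14 thymic epithelial markers were also above that level in at least 1 group. The part of myeloid cells in either result was not tested.

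**Figure D3:**
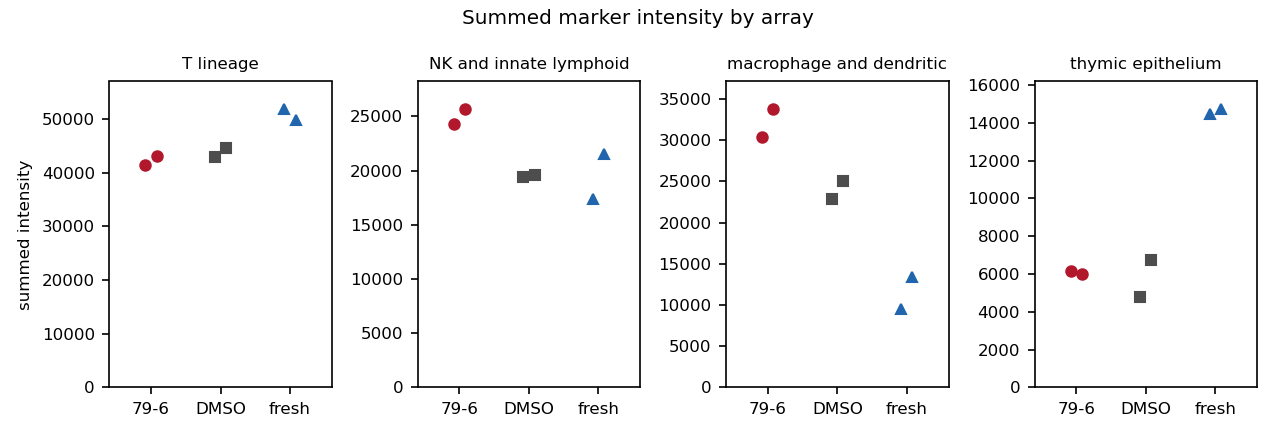
Summed intensity (vertical axes from 0, scaled per panel) of 10 T-lineage, 16 NK and innate lymphoid, 18 macrophage and dendritic cell and 14 thymic epithelial marker genes in each of 2 arrays of 79-6, DMSO and fresh cells. The macrophage sum is highest in 79-6 (30344 and 33746) and lowest in fresh cells (9488 and 13345), and the epithelial sum is highest in fresh cells.

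Other receptors of the type I cytokine class gave a backdrop to these counts. Of 18 measured, 3 were higher and 1 lower in 79-6 than in DMSO, and 5 higher and 3 lower in DMSO than in fresh cells. In 79-6 against fresh cells 8 were higher and 3 lower. Csf2rb, the beta chain shared by the receptors for IL-3, IL-5 and GM-CSF, had log2 differences of 0.996 and 1.36 (adjusted p = 0.0548 and 0.00524 by limma), and its near-identical copy Csf2rb2, whose probes may share signal, 0.998 and 0.68 (0.0530 and 0.0715). Il27ra, the interleukin-27 receptor chain, had 0.35 and 0.84 (adjusted p = 0.0878 and 0.00100 by limma). Il6ra had log2 differences of 0.53 between 79-6 and DMSO and 1.38 between DMSO and fresh (adjusted p = 0.0483 and 2.5e-04 by limma). Il5ra, the interleukin-5 receptor chain, fell in both steps, with -0.63 and -0.73 (adjusted p = 0.0194 and 0.00205 by limma). Il12rb2, the signalling chain for interleukin-12, was higher by 0.34 in 79-6 than in DMSO and lower by a log2 difference of -0.70 in DMSO than in fresh cells. Il12rb1, the chain shared by interleukin-12 and interleukin-23, was higher by 0.38 and 0.50 in the 2 steps. Of the calls between 79-6 and DMSO, those of Il12rb1 and Il12rb2 were lost without any one of the 6 arrays (0.0602 to 0.201). That of Il6ra was lost without any one 79-6 or DMSO array (0.0519 to 0.205) and that of Il5ra without 79-6 replicate 2 or either DMSO array (0.0888 to 0.133). Between these groups the 3 higher receptors became 4 without either fresh array, when Il23r (0.00237), Csf2rb (0.00774) and Csf2rb2 (0.0189) were called. The 5 higher in DMSO than in fresh cells numbered 8 without fresh replicate 2, when Il23r (0.0312), Csf2rb2 (0.0110) and Csf3r (0.00772) were called.

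Of the cytokines that use these receptors, with Tslp and Il13 counted among the 8, 0 were called between 79-6 and DMSO by limma, where 1 had an interval that left out 0. That gene was Il15, at 7.12 and 7.17 in 79-6, 6.75 and 6.80 in DMSO, and 6.36 and 6.55 in fresh cells. The 3 groups did not overlap, and the difference between 79-6 and DMSO was 0.37 ± 0.09 (SE, adjusted p = 0.0595 by limma). Relative to fresh cells it was higher by 0.69 in 79-6 (adjusted p = 0.00119) and by 0.32 in DMSO (adjusted p = 0.0373 by limma, and 0.115 to 0.222 without either DMSO array or fresh replicate 1). Il7, a product of thymic epithelium, was 5.46 and 5.24 in 79-6, 5.03 and 5.41 in DMSO, and 6.18 and 6.32 in fresh cells. It was lower in DMSO than in fresh cells (adjusted p = 0.00224 by limma). Only its fresh level was above the olfactory receptor level of 5.88, so no fold is given and its cultured levels are not above background. Of 14 thymic epithelial markers 12 fell and 0 rose in DMSO against fresh cells. Their intensities summed to 6149 and 6020 in 79-6, 4772 and 6768 in DMSO, and 14448 and 14721 in fresh cells. The part of epithelial cells in the Il7 result was not tested. The group means of Il2, Il9, Il21 and Tslp stayed under that level, and the call of the dim Tslp between DMSO and fresh cells (-0.29, adjusted p = 0.0296 by limma) was lost without any one DMSO or fresh array (0.114 to 0.148). Il4 (log2 differences of -0.01 and -0.01) and Il13 (0.10 and -0.18) did not pass in the 2 steps.

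Among the kinases and transcription factors downstream, 5 genes were analysed here (Jak1, Stat3, Stat5a, Stat5b and Stat6). By limma 0 of 5 were called between 79-6 and DMSO, where Jak1 alone had an interval above 0 and Stat5b one below 0. Jak1, the kinase bound to the ligand-specific chains, was higher in DMSO than in fresh cells by 0.29 (adjusted p = 0.0248 by limma, and 0.0872 to 0.154 without any one DMSO or fresh array). Stat6, which serves Il4ra, was higher by 0.39 (adjusted p = 0.00918 by limma, lost without DMSO replicate 2, 0.0628, or fresh replicate 2, 0.0677). Stat5a was lower, with a difference of -0.46 (adjusted p = 0.00708 by limma, lost without DMSO replicate 1, 0.0521, or fresh replicate 1, 0.0544). Its close relative Stat5b had 0.26 (adjusted p = 0.0546 by limma), and probes of such paralogues can share signal.

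Of 8 feedback inhibitors of cytokine signalling, 4 were higher and 0 lower in 79-6 than in DMSO. In DMSO against fresh cells 0 were higher and 3 lower, and in 79-6 against fresh cells 3 were higher and 3 lower. Over all genes 4.36%, 19.6% and 26% were called in these comparisons. Socs2, a Stat5-induced inhibitor, was 8.54 and 8.66 in 79-6, 7.45 and 7.40 in DMSO, and 9.56 and 9.60 in fresh cells. The groups did not overlap, with fresh cells highest and DMSO lowest. Socs2 was 2.26-fold higher with 79-6 than with DMSO (adjusted p = 9.4e-04 by limma) and 4.45-fold lower in DMSO than in fresh cells (adjusted p = 1.3e-05 by limma), calls that no left-out array removed. Cish, another Stat5-induced inhibitor, was 7.99 and 8.07 in 79-6, 7.57 and 7.49 in DMSO, and 8.24 and 8.49 in fresh cells. It also had its lowest arrays in DMSO, with a difference of 0.50 between 79-6 and DMSO (adjusted p = 0.0414 by limma, lost without any 79-6 or DMSO array, 0.0717 to 0.200) and -0.84 between DMSO and fresh (adjusted p = 0.00132 by limma).

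Socs3, an inhibitor of Stat3 signals, had 0.71 between 79-6 and DMSO (adjusted p = 0.00768 by limma, lost without 79-6 replicate 2, 0.0551, or DMSO replicate 1, 0.062) and -0.36 between DMSO and fresh (adjusted p = 0.0188 by limma, lost without DMSO replicate 1 or either fresh array, 0.0744 to 0.113). Ptpn6, the phosphatase SHP-1, was higher by 0.51 in 79-6 than in DMSO (adjusted p = 0.0218 by limma, lost without 79-6 replicate 2 or either DMSO array, 0.111 to 0.126). Sh2b3 (0.33) and the phosphatase gene Ptpn2 (-0.36) were called in 79-6 against fresh cells alone. The Sh2b3 call was lost without 79-6 replicate 2 (0.107) or fresh replicate 1 (0.15). That of Ptpn2 was lost without any array but 79-6 replicate 1 (0.0648 to 0.17), and its difference was -0.22 without 79-6 replicate 2. Socs1, which binds the Jak kinases, differed by 0.02 and 0.05 in the 2 steps and was not called. The 4 higher inhibitors numbered 1 without 79-6 replicate 2 or DMSO replicate 1, 2 without DMSO replicate 2 and 3 without 79-6 replicate 1.

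Known targets of these receptors went in both directions. The list includes Bcl6, which Stat5 represses, so its counts of higher and lower genes do not measure signalling in a single direction. Of 12 genes, 2 were higher and 4 lower in 79-6 than in DMSO, 5 higher and 3 lower in DMSO than in fresh cells, and 6 higher and 3 lower in 79-6 than in fresh cells. The survival gene Bcl2 was 10.62 and 10.69 in 79-6, 10.12 and 9.83 in DMSO, and 10.65 and 10.70 in fresh cells. DMSO was lowest and the other groups overlapped, with 0.68 ± 0.10 (SE) between 79-6 and DMSO (adjusted p = 0.0186 by limma, lost without 79-6 replicate 2, 0.11, or DMSO replicate 2, 0.0896). Its relative Bcl2l1, which encodes Bcl-xL, ran the other way, at 8.64 and 8.70 in 79-6, 9.20 and 9.32 in DMSO, and 8.18 and 8.10 in fresh cells. The difference between 79-6 and DMSO was -0.59 (adjusted p = 0.0121 by limma, lost without 79-6 replicate 2 or either DMSO array, 0.062 to 0.0938). The kinase gene Pim2 was higher in both steps, by 0.56 and 0.55 (adjusted p = 0.0467 and 0.0159 by limma). The first of these calls was lost without any one array (0.0575 to 0.196) and the second without DMSO replicate 1 (0.0808) or fresh replicate 1 (0.0966).

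The cyclin genes Ccnd2 (-1.01) and Ccnd3 (0.99) moved apart in DMSO against fresh cells (adjusted p = 5.4e-04 and 2.5e-04 by limma) and had 0.34 and -0.31 between 79-6 and DMSO, which did not pass (Ccnd2 0.0426 without 79-6 replicate 1).

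Bcl6, a gene that Stat5 represses in T cells, was 8.54 and 8.51 in 79-6, 8.98 and 9.18 in DMSO, and 7.505 and 7.363 in fresh cells. It was lower with 79-6 than with DMSO (log2 difference -0.55, adjusted p = 0.0251 by limma), a call lost without any 79-6 or DMSO array (0.0613 to 0.147). Myc was lower in both steps, with log2 differences of -0.51 between 79-6 and DMSO and -0.63 between DMSO and fresh cells (adjusted p = 0.0215 and 0.00176 by limma). Gfi1, a repressor that acts on Il7r, had -0.52 between 79-6 and DMSO (adjusted p = 0.0280 by limma). The Myc and Gfi1 calls between 79-6 and DMSO were lost without 79-6 replicate 2 or either DMSO array (0.0791 to 0.156). The 4 lower targets numbered 0 without those 3 arrays, and the 2 higher ones 0 without 79-6 replicate 2 or DMSO replicate 2 and 1 without DMSO replicate 1 or either fresh array.

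**Figure D4:**
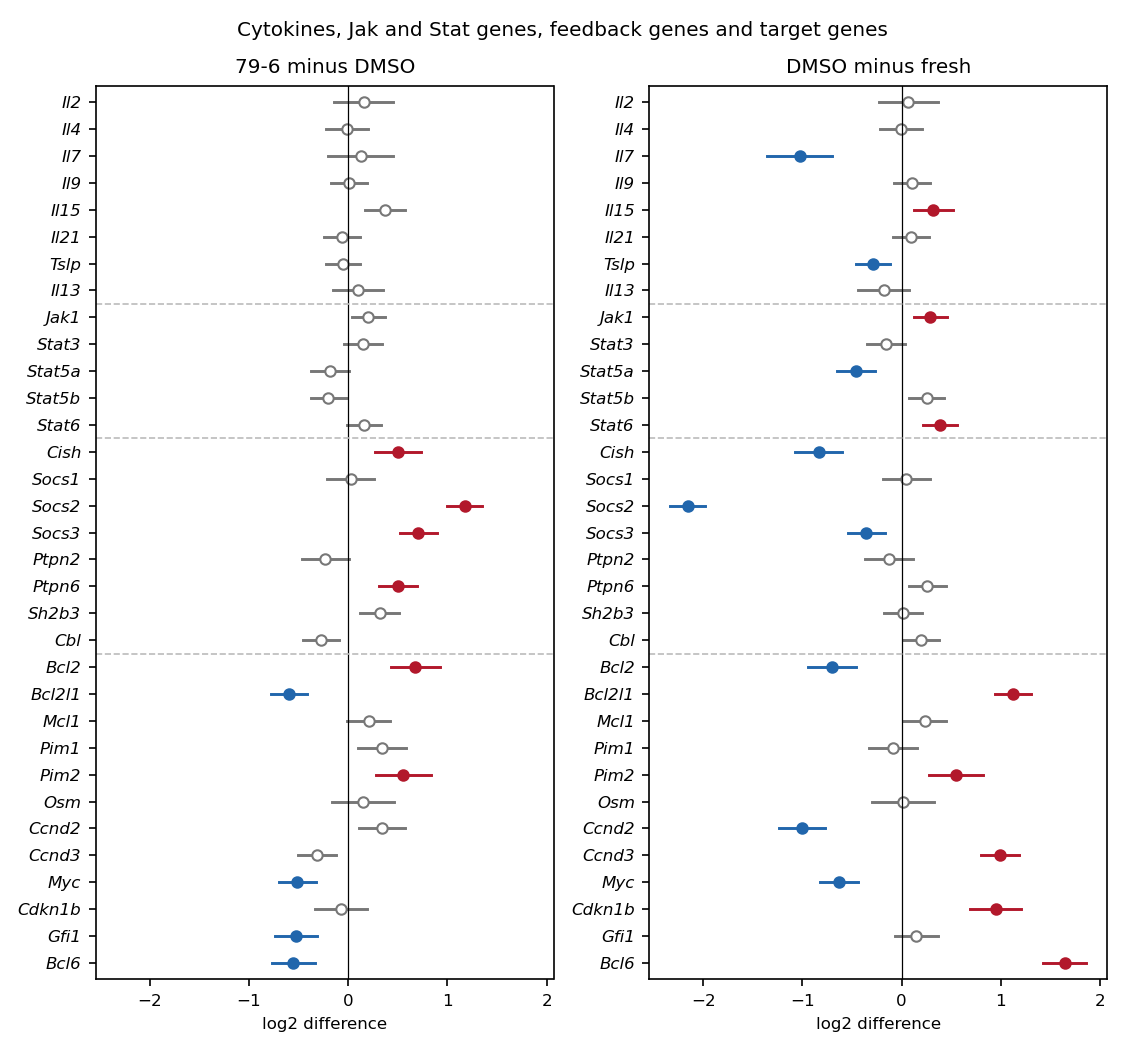
Log2 differences (horizontal axis, bars 95% intervals; red higher and blue lower at an adjusted p under 0.05, open grey not called) of cytokine, Jak and Stat, feedback and target genes, split by dashed lines from top to bottom, for 79-6 minus DMSO at left and DMSO minus fresh at right. Socs2 is 1.17 at left and -2.15 at right, and Bcl6 -0.55 and 1.64.

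Transcription factors known to regulate the receptor genes were also read. Of 16 measured, 3 were higher and 3 lower in 79-6 than in DMSO, 4 higher and 7 lower in DMSO than in fresh cells, and 4 higher and 6 lower in 79-6 than in fresh cells. Foxo1, an activator of Il7r, was 11.002 and 11.094 in 79-6, 10.07 and 10.13 in DMSO, and 8.66 and 8.69 in fresh cells. It was highest in 79-6 and lowest in fresh cells, with 0.95 between 79-6 and DMSO and 1.42 between DMSO and fresh (adjusted p = 0.00213 and 3.2e-05 by limma). Il7r was highest in fresh cells, and its relation to Foxo1 was not tested. Notch1 (-0.92), Notch3 (-1.46), Hes1 (-1.52) and Runx1 (-1.20), regulators of the DN3 stage at which Il2ra is high, were lower in DMSO than in fresh cells and did not pass between 79-6 and DMSO (0.21, 0.28, 0.07 and -0.28). Runx3, an activator of Il2rb in cytotoxic cells, was higher by 0.77 in 79-6 than in DMSO (adjusted p = 0.00354 by limma) and differed by -0.08 between DMSO and fresh (adjusted p = 0.528 by limma). Tbx21, another activator of Il2rb and itself a marker of the NK list, had 0.49 and -0.44 (adjusted p = 0.0249 and 0.00895 by limma). Its calls were lost without any 79-6 or DMSO array in the first step (0.0509 to 0.155) and without DMSO replicate 2 (0.0621) or fresh replicate 2 (0.0667) in the second. Myb was lower in both steps, with -0.35 and -0.45 (adjusted p = 0.0371 and 0.00356 by limma), the first lost without any one array (0.0693 to 0.178). The glucocorticoid receptor gene Nr3c1, an activator of Il7r, had -0.53 and 0.62 (adjusted p = 0.0133 and 0.00113 by limma), the first lost without 79-6 replicate 2 or either DMSO array (0.0688 to 0.0984). The 3 lower regulators, Gfi1, Myb and Nr3c1, thus numbered 0 without any of those 3 arrays.

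Likeness of pattern was measured over 3 group means of 2 arrays, as the distance between genes in their pair of log2 differences (DMSO minus fresh, 79-6 minus DMSO). Il7r lay closest to Il7, at a distance of 0.03 that rests on cultured Il7 levels not above the olfactory receptor level, followed by Agrn and the endothelial gene Emcn at 0.04 each. Il21r lay closest to myeloid genes, S100a8 at 0.07, Igsf6 at 0.11 and Clec4a2 at 0.11. Nearest to Il4ra were Ifngr2, a chain of the interferon-gamma receptor (0.03), Naip2 (0.05) and the inflammatory caspase gene Casp1 (0.06). The interferon-induced gene Oasl2 (0.15), Fgf14 (0.15) and Bcl2l14 (0.18) were nearest to Il2ra, farther than any gene named for the other members. Il2rb was closest to Bin1 (0.02), the leukotriene receptor gene Cysltr2 (0.08) and Serpinb6b (0.08). For Il15ra the nearest were the Notch ligand gene Jag1 (0.01), Des (0.02) and Tbc1d4 (0.02), and for Il9r Zmym3 (0.01), Gm8096 (0.02) and the phosphodiesterase gene Pde5a (0.03). Such distances describe these 6 arrays, and small ones are easily found among 19937 genes.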

How the data were processed

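Affymetrix whole-transcript arrays of 6 samples were used, 1 colour with a biotin label, per the labels' protocols. RMA and oligo are the tools in the submitters' processing notes, without versions. The authors deposited each probe set's intensity on a linear scale (8.75 to 25316), and its log2 was used in every test. Of 34760 probe sets 21640 carried 1 gene symbol, 1321 several and 11799 none; for each of 19937 genes the brightest 1-symbol probe set was kept. Replacing symbols through Entrez identifiers (21553 matched in RefSeq) changed 0 of them. All 6 arrays were fitted with 1 mean per group in limma 3.58.1 (R 4.3.3; residual degrees of freedom 3, prior 4.24), two-sided, without trend or robust settings, and tested on simulated data.

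Alternatives were a replicate block, arrays set to one median, trend and robust settings, log2(value + 16), leaving out genes whose highest group mean was under the 95th percentile of olfactory receptor probe sets, the mean of all probe sets of a gene, only the 2 groups compared, and leaving out each array. As a pairing check, departures from the group mean were correlated between arrays of equal number (-0.074, 0.0948 and 0.0036), which does not show that numbers pair arrays. Named genes were all measured members, the called members of each pathway list (up to 6, largest first), the cytokines, and the 3 genes nearest in pattern to each member. Other names (Bcl2, Gfi1, Runx3, Tbx21, Nr3c1, Il12rb1, Il12rb2, Csf3r, Stat5b, Socs1, Crlf2 and the marker genes) were chosen after their values were seen. Members and lists were chosen with earlier results of these data known. Markers of B cells, mesenchyme, endothelium and erythroid cells had 1, 0 and 0 genes higher and 0, 1 and 0 lower in 79-6 than in DMSO by limma, with mesenchyme and endothelium counted together.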

Additional observations from a re-analysis of the deposited data

How the results depend on the processing

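Differences of the members kept their sign in every called case under all 13 alternatives, but many of these could not change it. A replicate block, trend and robust settings, or fitting only the 2 groups compared leaves the difference as it was. So does leaving out dim genes, averaging probe sets (each member has 1), or leaving out an array of the group not compared. Those settings bear on the adjusted p alone. The uncalled difference of Il2rb between 79-6 and fresh cells ran from -0.03 to 0.40. The number of genes called between 79-6 and DMSO was 869, was 1723 with trend and robust settings (the cause was not tested) and lay between 93 and 661 when 1 array was left out. Members called there numbered 4, and 0 to 3 when 1 array was left out. For DMSO against fresh cells 3902 genes were called (2286 to 4070 without 1 array) and 6 members (5 to 7). For 79-6 against fresh cells 5174 genes were called (3081 to 5068) and 6 members (5 to 6). Each such fit leaves 1 array in a group, which is then assumed to vary like the other groups. The replicate block gave 774, 3667 and 4852 genes and 3, 6 and 6 members in the same order, and of the member calls it removed that of Il9r between 79-6 and DMSO alone (adjusted p = 0.0527 by limma). Il9r between DMSO and fresh cells was called with trend and robust settings and with only these 2 groups fitted. Il23r between DMSO and fresh cells was 0.01 and not called, and turned to -0.45 without fresh replicate 1 (adjusted p = 0.0397 by limma) and 0.47 without fresh replicate 2 (0.0312), the first a fit that leaves fresh replicate 2, at 6.43 against 5.52 in replicate 1. No detection calls were used, and genes near the olfactory receptor level, such as Il7 in cultured cells, have little signal to compare.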
